A study of Mus musculus with 4 samples.

Results

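The 10 genes described here regulate or mark mesoderm and mesenchyme: the receptors *Pdgfra* and *Pdgfrb*, the transcription factors *Meox1*, *Tcf15*, *Tbx18*, *Foxc1*, *Foxc2*, *Prrx1* and *Twist2*, and the matrix gene *Vcan*. They were picked by symbol from 23420 genes, with the results of the WT against *Patz1* KO comparison already known. That comparison therefore only describes them, and no p value is given for any of the 10. The gene lists below were also chosen with earlier results of these data known, and the neighbouring genes after values had been seen. Adjusted p values of those genes are thus descriptive too. All 10 were found, and 8 passed the filter on low counts, which 14269 genes passed in all. *Meox1* and *Twist2* did not pass it.

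RNA-seq was carried out on cervical motor neuron (MN) cultures derived from E14 mESCs, a line of mouse embryonic stem cells, and the question was how loss of PATZ1, a zinc finger protein, alters the transcriptome of MNs. The groups were 2 libraries of wild type cells (WT) and 2 libraries of the genotype *Patz1* -/- (*Patz1* KO), a line made by CRISPR in the same E14 cells. Both groups were grown in LIF with a MEK and a GSK3 inhibitor, turned into embryoid bodies, and given 1 μM all-trans retinoic acid (RA) and 0.5 μM smoothened agonist (SAG) on day 2. The day of harvest is not given in the sources used here. Several single-cell *Patz1* KO clones were made in the study, and the labels do not say which clone these libraries came from or whether it was 1 clone. The titles name ESCs, while the source and cell type name MNs. The 18 genes of a motor neuron and neuron list, *Mnx1*, *Isl1*, *Lhx3* and *Chat* among them, all passed the filter, and their summed level was 4726 to 5018 CPM (counts scaled to the size of the library) in WT and 6822 to 7205 CPM in *Patz1* KO. Total counts were 14769104 and 15728158 in WT and 23881522 and 17402342 in *Patz1* KO. *Patz1* had 1363 and 1499 WT counts against 1154 and 714 KO counts, a log2 fold change of -1.04, so the transcript was still counted in the KO libraries.

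Mesoderm forms in the gastrulating embryo and divides into paraxial, intermediate and lateral plate parts. Paraxial mesoderm beside the neural tube breaks up into somites, under transcription factors such as TCF15, TBX18, MEOX1 and the FOXC pair, and somites and lateral plate give rise to the loose, matrix-rich cells called mesenchyme. PDGF receptors are tyrosine kinases that carry growth signals into these cells, PRRX1 and TWIST2 are factors of limb, face and skin mesenchyme, and versican, the product of *Vcan*, is a large proteoglycan of the matrix around them. RA with SAG directs embryoid bodies to ventral neural tube cells, and embryoid bodies can hold some non-neural cells as well.

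All 10 genes were lower in both *Patz1* KO libraries than in both WT libraries. Summed over the 10, the level was 420.5 and 468.7 CPM in WT and 127 and 123.2 CPM in *Patz1* KO. *Vcan* made up most of that sum. Without it, the other 9 genes summed to 56.6 and 67.6 CPM in WT and 10.14 and 10.01 CPM in *Patz1* KO, 6.17 times lower on average. The 7 transcription factors summed to 13.95 and 19.3 CPM in WT and 1.86 and 2.09 CPM in *Patz1* KO, and the 2 receptors to 42.7 and 48.3 against 8.29 and 7.93 CPM. These were bulk samples, so fewer cells of a type and less RNA per cell cannot be told apart.

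With edgeR's quasi-likelihood test, adjusted over all genes by the Benjamini-Hochberg method, 7 of the 8 genes that passed the filter were called lower at an adjusted p below 0.05 and 0 higher, beside 23.8% of all genes tested called lower, 24.1% called higher and 47.9% called in either direction. The 2 groups of libraries did not overlap, with *Patz1* KO below, in 8 of these 8 genes and in 37.2% of all genes tested. Since the genes were chosen on this contrast, nothing is read from either count or from the median below. *Foxc2*, *Tbx18*, *Prrx1* and *Tcf15* passed the filter through their WT counts. Each had fewer than 10 counts in at least 1 *Patz1* KO library. The median log2 fold change of the 8 genes was -2.72, against -0.0014 over all genes tested. Values ranged from -4.89 for *Foxc2* to -0.82 for *Pdgfrb*. The gene not called was *Tcf15*.

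**Figure D1:**
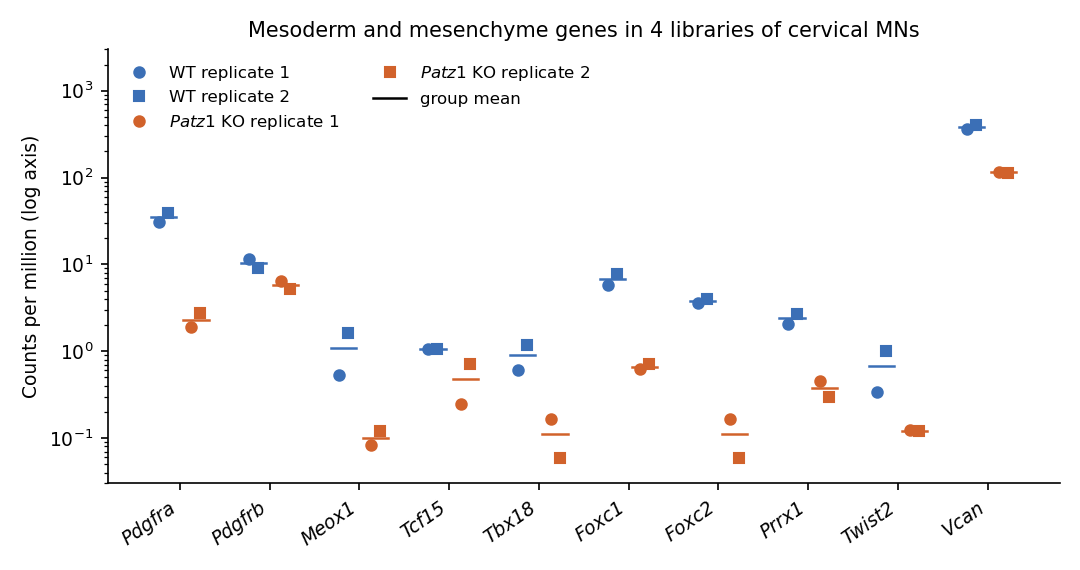
Level of each of the 10 genes in CPM on a log axis, with 1 point per library, 2 WT and 2 *Patz1* KO, and a bar at each group mean. In every gene both *Patz1* KO points lie under both WT points, from *Vcan* near 400 CPM in WT down to *Twist2* at 0.336 and 1.01 CPM.

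*Pdgfra* encodes the PDGF receptor alpha, a marker of paraxial mesoderm, of many mesenchymal cells and, in the nervous system, of oligodendrocyte precursors (chromosome 5, 75152292 to 75198215, plus strand; positions are on GRCm38, the assembly of mm10). It had 463 and 626 counts in WT but 46 in each *Patz1* KO library, which is 31.1 and 39.3 CPM against 1.90 and 2.74 CPM. The groups were far apart compared with their spread, 35.2 ± 5.86 CPM (SD, n = 2) in WT and 2.32 ± 0.597 CPM in *Patz1* KO. The log2 fold change was -3.96 (SE 0.18, 95% interval -4.35 to -3.57), and 62 of the 14269 genes tested, itself included, lay at or below it. *Pdgfra* shares exon bases with the miRNA gene *Mir7025* on its own strand and with *Gm42802* and *Gm42803* on the opposite strand. The libraries were stranded, but the strand setting of the counting is not given in the sources used here, so reads of these genes cannot be told apart.

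*Pdgfrb* encodes the beta receptor, which is typical of pericytes and smooth muscle precursors (chromosome 18, 61045150 to 61085061, plus strand). It had 173 and 143 WT counts against 155 and 87 KO counts, or 11.6 and 8.99 CPM against 6.39 and 5.18 CPM. Both *Patz1* KO libraries were lower, but the gap was small next to that of *Pdgfra*, with means of 10.3 ± 1.85 and 5.79 ± 0.853 CPM (SD, n = 2) and a log2 fold change of -0.82 (SE 0.19, 95% interval -1.22 to -0.41). The balance between the 2 receptors turned over. Per kb of exon, *Pdgfra* was 1.46 and 2.39 times *Pdgfrb* in the WT libraries and 0.162 and 0.289 times *Pdgfrb* in the *Patz1* KO libraries.

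The receptors' ligands and signaling partners were taken as a list of 14 genes, of which 13 were tested. 5 were called lower (38.5%) and 0 higher, beside 23.8% and 24.1% of all genes tested, and the median log2 fold change was -0.06. With DESeq2, 3 were called lower. Among the ligands, *Pdgfc*, which activates the alpha receptor, had 186 and 228 WT counts against 66 and 46 KO counts. It fell by 2.29 on the log2 scale (SE 0.19, adjusted p = 4.23e-08, edgeR). *Pdgfd*, whose product binds the beta receptor, had 22 and 37 WT counts against 5 and 2 KO counts and fell by 3.44 (SE 0.53, adjusted p = 3.69e-05). *Pdgfa*, the other main ligand of the alpha receptor, had 50 and 61 WT counts against 81 and 52 KO counts, a log2 fold change of -0.16 (SE 0.25, adjusted p = 0.633). *Pdgfb* had 0 to 8 counts per library and was not tested.

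Downstream of the receptors, the adaptor gene *Shc1* fell by 0.77 (SE 0.12, adjusted p = 4.59e-05). *Sos1*, a Ras exchange factor, and *Ptpn11*, a phosphatase of the pathway, fell by 0.25 and 0.26, and each lost its call in 4 of 10 alternatives. The remaining 8 tested genes of the list, *Pdgfa*, *Grb2*, *Pik3ca* and *Pik3r1* among them, were not called. Of the receptor genes most like the PDGF receptors, *Kit* fell by 0.49 (SE 0.14, adjusted p = 0.00809), a call lost without WT replicate 2 and with DESeq2, while *Flt3* and *Csf1r* had at most 7 counts in any library and were not tested.

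Among the somite factors, *Meox1*, a homeobox gene of somites and sclerotome, was barely counted (chromosome 11, 101877510 to 101894374, minus strand). It had 8 and 26 counts in WT but 2 in each *Patz1* KO library, or 0.537 and 1.63 CPM against 0.0825 and 0.119 CPM. The WT libraries differed widely from each other here, but neither reached down to the *Patz1* KO values. Pooled over the libraries, its rate was 11.3 times higher in WT, with a 95% counting interval of 4.04 to 43.9, which covers counting error only. Such an interval leaves out the spread between replicates, and the reads carry no molecular identifiers.

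*Tcf15* encodes paraxis, a bHLH factor needed for somites to become epithelial (chromosome 2, 152143561 to 152149097, plus strand). It had 16 and 17 WT counts against 6 and 12 KO counts, or 1.07 CPM in each WT library against 0.247 and 0.715 CPM. The *Patz1* KO libraries disagreed on how far it lay below WT. Its log2 fold change of -1.25 (SE 0.51, 95% interval -2.33 to -0.18) was -0.57 without *Patz1* KO replicate 1 and -2.08 without *Patz1* KO replicate 2.

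*Tbx18* encodes a T-box repressor that keeps the front compartment of somites and also marks the epicardium (chromosome 9, 87702800 to 87731260, minus strand). It had 9 and 19 WT counts against 4 and 1 KO counts, or 0.604 and 1.19 CPM against 0.165 and 0.0596 CPM. The groups did not overlap, but the few counts left the size of the gap loose, with a log2 fold change of -2.83 (SE 0.67, 95% interval -4.25 to -1.42). It was -3.76 without *Patz1* KO replicate 1 and -2.41 without *Patz1* KO replicate 2. The 95% counting interval of its pooled counts was -4.63 to -1.51 on the log2 scale, so the fitted interval may be too narrow. *Tbx18* shares 970 exon bases with *D030062O11Rik* on the opposite strand.

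The early and segmental genes of the same lineage were mostly at or near 0 in both groups. Of 27 further paraxial mesoderm and somite genes, 9 passed the filter. *Msgn1* and *Mesp1*, made in nascent paraxial mesoderm, and *Ripply1* and *Nkx3-2*, of segmenting somites and sclerotome, had 0 counts in all 4 libraries, and a count of 0 allows up to 0.124 to 0.201 CPM, depending on the library. The primitive streak gene *T* had a single count in 1 library. Of the 9 tested, 4 were called lower (44.4%) and 1 higher (11.1%), with a median log2 fold change of -0.28. Over all genes tested the shares were 23.8% and 24.1%. *Aldh1a2*, which makes RA in somites and also in MNs, fell by 1.21 (SE 0.10, adjusted p = 3.65e-08), and *Pax9*, a sclerotome gene, fell by 1.70 (SE 0.40, adjusted p = 0.00208). *Epha4* and *Sim1* fell by 0.57 and 0.58, and *Lfng*, a Notch modifier of somites and neural tube, rose by 0.73 (SE 0.12, adjusted p = 6.45e-05). Several of these genes are also expressed in the neural tube.

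*Foxc1* and *Foxc2* encode forkhead factors that act together in paraxial and intermediate mesoderm, vessels and the eye. *Foxc1* (chromosome 13, 31806633 to 31812476, plus strand) had 86 and 122 WT counts against 15 and 12 KO counts, or 5.77 and 7.67 CPM against 0.618 and 0.715 CPM. *Foxc2* (chromosome 8, 121116171 to 121118895, plus strand) had 53 and 64 WT counts against 4 and 1 KO counts, or 3.56 and 4.02 CPM against 0.165 and 0.0596 CPM. Both genes were several times lower in every *Patz1* KO library than in any WT library.

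The log2 fold change of *Foxc1* was -3.34 (SE 0.31, 95% interval -3.99 to -2.69). That of *Foxc2* was -4.89 (SE 0.47, 95% interval -5.88 to -3.89), the lowest of the 10 genes, and 27 of all genes tested lay at or below it. It was -5.81 without *Patz1* KO replicate 1, the library with 4 counts, and -4.46 without *Patz1* KO replicate 2. The pooled counts of *Foxc2* gave a 95% counting interval of -6.61 to -3.70 on the log2 scale. This is wider than the fitted interval, which may thus be too narrow at such low counts. Per kb of exon, *Foxc1* stood at 0.757 and 0.889 times *Foxc2* in WT and at 1.75 and 5.59 times *Foxc2* in *Patz1* KO, where *Foxc2* rested on 5 counts in all.

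Each of the FOXC genes lies in a cluster of 3 forkhead genes, and the whole of both clusters was lower. The 3 nearest protein-coding genes on either side of each of the 10 genes were taken by position, a choice made after values had been seen. Beside *Foxc2*, *Foxf1* starts 31.8 kb before and *Foxl1* 11.8 kb after it. *Foxf1*, a gene of lateral plate and gut mesenchyme, had 360 and 503 WT counts against 68 and 49 KO counts and fell by 3.29 (SE 0.18, adjusted p = 1.53e-10). *Foxl1*, also of gut mesenchyme, had 119 and 129 WT counts against 24 and 19 KO counts and fell by 2.93 (SE 0.26, adjusted p = 6.54e-08). *Mthfsd*, which lies between *Foxf1* and *Foxc2* and starts 7.78 kb before *Foxc2*, had 397 and 355 WT counts against 794 and 506 KO counts, a log2 fold change of 0.37 (SE 0.12, adjusted p = 0.0155) whose call was lost without WT replicate 2 and with DESeq2. The 3 forkhead genes around it thus moved opposite to it.

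On chromosome 13, *Foxf2* starts 181 kb and *Foxq1* 250 kb before *Foxc1*. *Foxf2* had 78 and 120 WT counts against 25 and 29 KO counts and fell by 2.26 (SE 0.30, adjusted p = 7.10e-06). *Foxq1*, an epithelial gene, had 19 and 21 WT counts against 3 and 5 KO counts and fell by 2.68 (SE 0.54, adjusted p = 0.000554). The other 7 tested neighbours of the FOXC genes had log2 fold changes of -0.47 to 0.53, with 0 called lower and 2 higher, *Mthfsd* and *Fbxo31*.

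**Figure D2:**
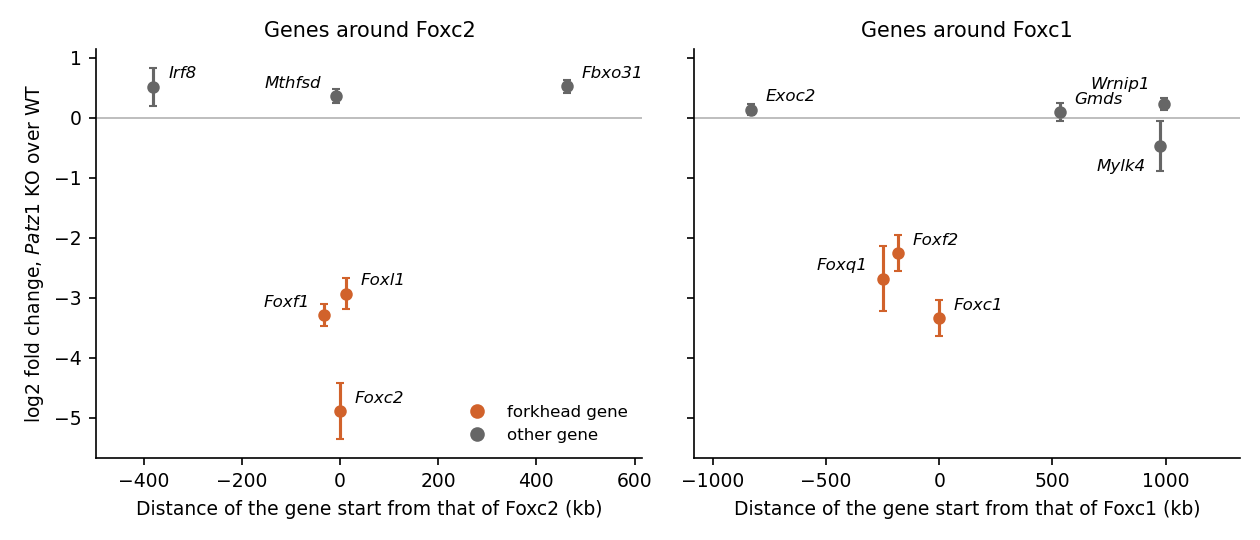
Fitted log2 fold change of *Patz1* KO over WT (y axis, error bars 1 SE) for the tested neighbours of *Foxc2* (left) and *Foxc1* (right), against the distance of each gene's start in kb (x axis). The 6 forkhead genes lie between -4.89 and -2.26, and the 7 other genes between -0.47 and 0.53.

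Of 44 forkhead genes in the files, 30 were tested. The 24 outside both clusters had a median log2 fold change of -0.37, with 12 called lower and 4 higher. *Foxd1* and *Foxd2* had log2 fold changes of -2.63 and -2.65, the endoderm and floor plate genes *Foxa1* and *Foxa2* had -2.86 and -2.35, and *Foxd3*, of neural crest and stem cells, rose by 2.51. Around the other 8 of the 10 genes, 35 neighbours were tested, of which 11 were called lower and 8 higher, with a median of -0.04. Over all genes tested, 23.8% were called lower and 24.1% higher, the shares to set beside both sets of counts. Beside *Pdgfra*, *Kdr* fell by 1.03 (SE 0.25), *Lnx1* by 0.63 and *Kit* by 0.49, the call of *Lnx1* was lost in 4 of 10 alternatives, and *Chic2* and *Srd5a3* were not called.

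*Prrx1* encodes a homeodomain factor of limb and craniofacial mesenchyme (chromosome 1, 163245119 to 163313710, minus strand). It had 31 and 43 WT counts against 11 and 5 KO counts, or 2.08 and 2.70 CPM against 0.454 and 0.298 CPM. The WT libraries lay several times above the *Patz1* KO libraries, with a log2 fold change of -2.61 (SE 0.42, 95% interval -3.48 to -1.73). Its paralogue *Prrx2* had 34 and 21 WT counts against 8 and 1 KO counts and fell by 3.00 (SE 0.56, adjusted p = 0.000241).

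*Twist2* encodes a bHLH factor of skin and craniofacial mesenchyme (chromosome 1, 91801461 to 91848028, plus strand), and it was among the lowest of the 10 genes. It had 5 and 16 WT counts against 3 and 2 KO counts, or 0.336 and 1.01 CPM against 0.124 and 0.119 CPM. Pooled over libraries, its rate was 5.59 times higher in WT (95% counting interval 2.05 to 19.0), and WT replicate 1 lay only 2 counts above the higher *Patz1* KO library in raw counts. It shares 1477 exon bases with the antisense gene *Gm29100*. The better counted paralogue *Twist1*, a gene of mesoderm and neural crest mesenchyme, had 53 and 70 WT counts against 12 and 14 KO counts and fell by 2.63 (SE 0.35, adjusted p = 7.80e-06).

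Taken as a list, 17 relatives of the 10 genes were looked up, and 11 were tested. 8 were called lower, *Kit*, *Prrx2*, *Twist1*, *Foxd1*, *Foxd2*, *Foxf1*, *Foxf2* and *Foxl1*, and 2 higher, *Ncan* and *Bcan*, with a median log2 fold change of -2.63. The shares were 72.7% lower and 18.2% higher, beside 23.8% and 24.1% of all genes tested. *Scx*, a bHLH gene of tendon, was not called. *Tbx22* had 0 counts in all libraries. Some genes stand in more than 1 list, as *Foxf1*, *Prrx2*, *Twist1*, *Ncan* and *Bcan* do.

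The stretch before the gene start is shown for 4 of the genes, *Prrx1* and *Tbx18*, which hold the letters GGGAGGG or their reverse complement CCCTCCC, and *Pdgfra* and *Foxc1*, which do not hold these letters but have other G-rich stretches. PATZ1 is known to bind G-rich DNA much like that bound by its relative MAZ. RefSeq promoters on GRCm38.p6 (250 bases before the RefSeq start) were matched for 6 of the 10 genes, *Foxc1*, *Pdgfra*, *Prrx1*, *Tbx18*, *Twist2* and *Vcan*. The RefSeq start differs from the GENCODE gene start for some genes, and the 60 bases of *Prrx1* and 13 bases of *Foxc1* that lie inside the GENCODE gene are left off. Capitals mark every GGGAGGG or CCCTCCC, and matches that overlap are joined. Each is written 5′ to 3′ on the strand of its gene: *Prrx1* at chr1:163313711-163313900 on the minus strand, *Tbx18* at chr9:87731261-87731510 on the minus strand, *Pdgfra* at chr5:75152001-75152250 on the plus strand and *Foxc1* at chr13:31806396-31806632 on the plus strand.
Prrx1: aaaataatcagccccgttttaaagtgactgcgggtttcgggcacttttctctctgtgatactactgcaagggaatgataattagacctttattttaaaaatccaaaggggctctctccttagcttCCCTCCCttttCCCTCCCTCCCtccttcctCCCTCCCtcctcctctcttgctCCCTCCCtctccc
Tbx18: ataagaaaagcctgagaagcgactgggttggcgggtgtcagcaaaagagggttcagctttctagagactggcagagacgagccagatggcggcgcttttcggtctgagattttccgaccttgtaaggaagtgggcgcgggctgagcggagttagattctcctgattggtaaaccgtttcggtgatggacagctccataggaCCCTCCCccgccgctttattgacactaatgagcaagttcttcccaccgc
Pdgfra: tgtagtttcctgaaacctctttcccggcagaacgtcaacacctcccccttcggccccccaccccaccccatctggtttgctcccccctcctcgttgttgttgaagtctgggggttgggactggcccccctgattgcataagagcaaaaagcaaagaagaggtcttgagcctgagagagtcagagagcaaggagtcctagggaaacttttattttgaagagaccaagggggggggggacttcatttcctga
Foxc1: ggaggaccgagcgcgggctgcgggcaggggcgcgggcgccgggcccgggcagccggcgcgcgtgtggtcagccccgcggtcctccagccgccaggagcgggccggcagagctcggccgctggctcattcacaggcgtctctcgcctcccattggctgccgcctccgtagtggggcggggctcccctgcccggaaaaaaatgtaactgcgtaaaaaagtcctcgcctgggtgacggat

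Over the 250 bases, *Prrx1* had 5 matches to GGGAGGG on either strand, all as CCCTCCC within a stretch of C and T and some of them overlapping, and *Tbx18* had 1. The other 4 starts had none, so 2 of 6 held these letters, and 19.7% of the 32851 RefSeq promoters did. Counted on both strands, the E-box CANNTG stood in 3 of the 6 and in 66.2% of all promoters, the GC box GGGCGG in 3 and 32.7%, and CCAAT in 4 and 33.8%. TATAAA (12.4% of all) and the nuclear receptor motif AGGTCA (14.02% of all) were in 0 of the 6. No more than these letters were searched, and a match is not a bound site. The GC content of the windows ran from 47.6% at *Prrx1* to 70.8% at *Foxc1*, beside a median of 52.4% over all promoters.

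*Vcan* was by far the best counted of the 10 genes (chromosome 13, 89655312 to 89742509, minus strand). It had 5424 and 6382 WT counts against 2834 and 1899 KO counts, or 364 and 401 CPM against 117 and 113 CPM. Replicates lay close together, at 382.5 ± 26.3 CPM (SD, n = 2) in WT and 115 ± 2.60 CPM in *Patz1* KO, so its log2 fold change of -1.73 (SE 0.09, 95% interval -1.93 to -1.54) was the most precise of the 10. Versican is also made in neural tissue.

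The genes around versican in the matrix went in both directions. Of 30 hyaluronan, link protein, protease and chondroitin sulfate genes, 25 were tested, with a median log2 fold change of 0.02. 9 were called lower and 9 higher, 36.0% each, beside 23.8% and 24.1% of all genes tested. With DESeq2 these were 8 lower and 5 higher. *Has2*, the main hyaluronan synthase of embryonic mesenchyme, had 481 and 594 WT counts against 68 and 88 KO counts and fell by 3.17 (SE 0.19, adjusted p = 5.30e-10). *Hapln3*, a link protein that ties versican to hyaluronan, had 37 and 43 WT counts against 5 and 1 KO counts and fell by 4.09 (SE 0.50, adjusted p = 3.19e-06). The proteases *Adamts1* and *Adamts9*, which cut versican, fell by 1.58 and 1.27. The higher genes included *Ncan* and *Bcan*, which encode the neural relatives of versican, by 0.47 and 1.04 (the call of *Bcan* was lost in 3 of 10 alternatives), *Tnr*, of the neural matrix, by 0.88 (SE 0.13), and the chondroitin sulfate enzymes *Chpf* by 0.50 and *Chst3* by 0.70.

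**Figure D3:**
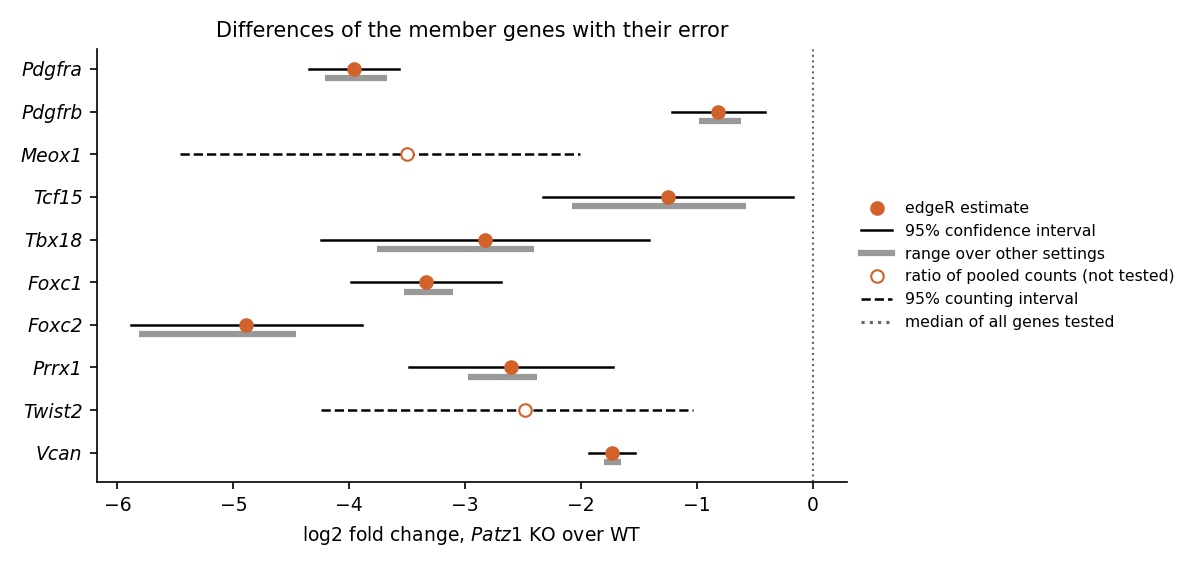
Log2 fold change of *Patz1* KO over WT (x axis) for the 10 genes, with filled points and lines for the edgeR estimates and their 95% intervals, grey bars for the range over other settings, and open points with dashed lines for the pooled ratios and 95% counting intervals of *Meox1* and *Twist2*. All points lie left of the dotted median of all genes tested, from *Foxc2* at -4.89 to *Pdgfrb* at -0.82.

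*Pdgfra* and *Foxc2* stood lower in the order of levels in *Patz1* KO than in WT. In WT, per kb of exon, *Vcan* stood at 26.5 CPM, *Pdgfra* at 3.51, *Pdgfrb* at 1.88, *Foxc2* at 1.39, *Foxc1* at 1.15, *Tcf15* at 1.09, *Meox1* at 0.487, *Prrx1* at 0.216, *Twist2* at 0.211 and *Tbx18* at 0.191. The libraries of *Foxc2* and *Foxc1*, of *Foxc1* and *Tcf15*, and of all neighbours from *Meox1* down overlapped, so their order is not set. In *Patz1* KO, *Vcan* still led at 7.95 CPM per kb, and *Pdgfrb* (1.06) and *Tcf15* (0.491) had higher means than *Pdgfra* (0.231) and *Foxc1* (0.114). The *Patz1* KO libraries of *Tcf15* and *Pdgfra* overlapped, so the order of these 2 is not set. The other 5 genes had means of 0.0238 to 0.0452 CPM per kb, and neighbours in that order overlapped.

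Further mesodermal genes were lower as well. Of 22 lateral plate and intermediate mesoderm genes, 17 were tested, with a median log2 fold change of -2.12. 13 were called lower (76.5%) and 1 higher (5.88%), beside 23.8% and 24.1% of all genes tested. The number called depended on which genes the filter kept. When genes below 10 counts in any library were left out, 6 were called lower and 0 higher. That filter left genes such as *Osr1*, with 7 and 6 KO counts, untested. The list summed to 95.4 and 108 CPM in WT and 33.0 and 37.2 CPM in *Patz1* KO. *Osr1*, of early kidney and limb mesoderm, had 84 and 100 WT counts against 7 and 6 KO counts and fell by 4.20 (SE 0.35), *Tcf21*, of epicardium and visceral mesenchyme, fell by 3.66 (SE 0.29), and *Foxf1* is given above. *Pax8*, of kidney, thyroid and dorsal interneurons, rose from 1 and 2 counts to 24 and 20, a log2 fold change of 3.38 (SE 0.66).

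Of 35 mesenchyme and fibroblast genes, 31 were tested, with a median of -1.35. 17 were called lower (54.8%) and 5 higher (16.1%), beside 23.8% and 24.1% of all genes tested. *Col3a1*, a fibrillar collagen, had 1360 and 1562 WT counts against 221 and 186 KO counts and fell by 3.24 (SE 0.12), *Fn1*, fibronectin, fell by 1.72 (SE 0.09), and *Dcn*, decorin, by 2.32 (SE 0.18). *Mcam*, an adhesion gene of pericytes and neurons, rose by 1.79 (SE 0.10), *Col6a1* by 1.21 and *Myl9* by 1.16. The sum of this list moved little, 2172 and 2179 CPM in WT and 1956 and 1859 CPM in *Patz1* KO, and *Vim*, which neural progenitors express too, made up 39.0% of it in WT.

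**Figure D4:**
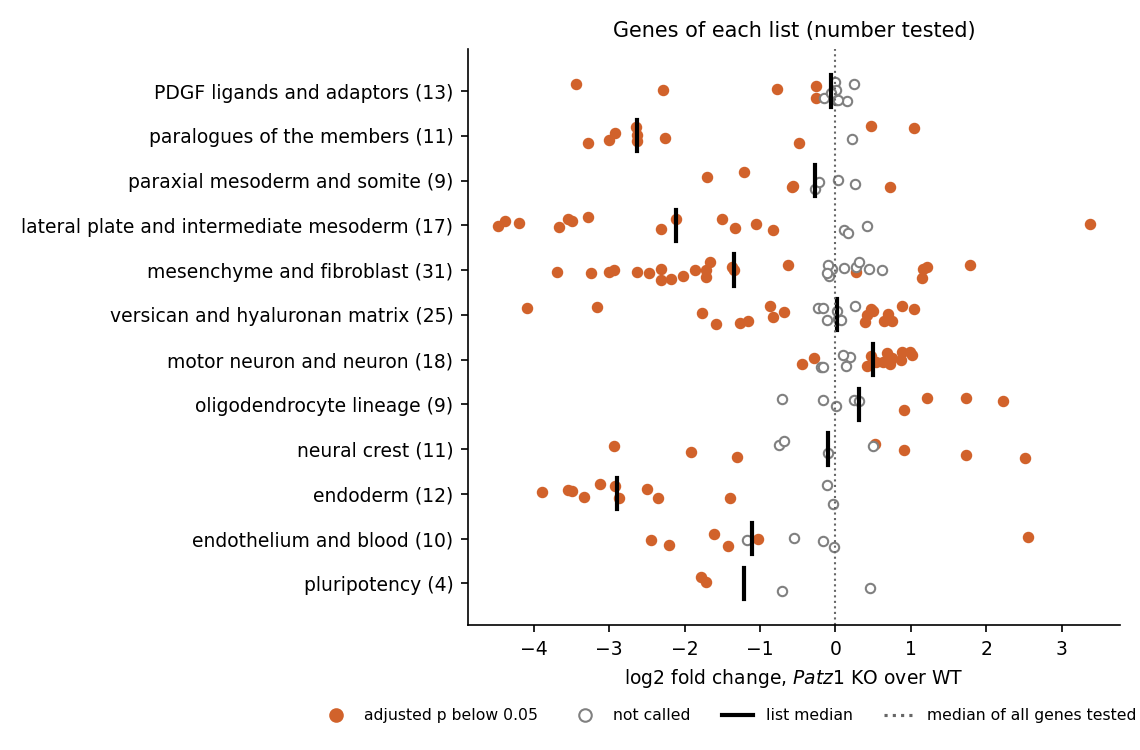
Fitted log2 fold change of *Patz1* KO over WT (x axis) for each tested gene of the 12 lists (y axis, number tested in brackets), with filled points called at an adjusted p below 0.05, open points not called, a bar at the list median and a dotted line at the median of all genes tested. The lateral plate genes, with a median of -2.12, and the endoderm genes, with -2.89, lie mostly to the left, and the motor neuron genes, with 0.50, mostly to the right.

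Markers of other cell types differed in direction. The shares to set beside each count here are those of all genes tested, 23.8% called lower and 24.1% higher. Of 15 endoderm genes, 12 were tested, with 10 called lower, 0 higher and a median log2 fold change of -2.89, and their sum was 91.2 and 104 CPM in WT against 15.2 and 16.4 CPM in *Patz1* KO, with none at 0 in every library. Of 14 endothelium and blood genes, 10 were tested, with 5 lower, 1 higher and a median log2 fold change of -1.10. Their sum was 16.3 and 19.2 CPM against 16.9 and 13.5 CPM, and *Hba-a1* was at 0. The summed level of endoderm markers was thus several times lower in *Patz1* KO, while that of the endothelial and blood markers overlapped between groups. That second sum includes *Tal1*, the 1 gene called higher, at a log2 fold change of 2.56. It also includes the 5 called lower, *Cdh5* (-2.44) and *Kdr* (-1.03) among them. When genes below 10 counts in any library were left out, 5 endoderm genes were called lower and 0 higher. For the endothelium and blood genes it was 2 lower and 1 higher. Of 12 neural crest genes, 11 were tested, with 3 lower and 4 higher, and the sum was 105 and 106 CPM against 135 and 128 CPM. The oligodendrocyte list, of interest because *Pdgfra* marks that lineage too, had 0 of 9 tested genes lower and 4 higher, with sums of 142 and 146 CPM against 182 and 169 CPM. Of 9 pluripotency genes, 4 were tested, 2 were lower and 0 higher, with sums of 9.80 and 12.7 CPM against 6.31 and 8.34 CPM, and *Utf1* was at 0.

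The motor neuron and neuron list had 11 of 18 genes higher (61.1%) and 2 lower (11.1%), with a median log2 fold change of 0.50. Over all genes tested, the shares were 24.1% higher and 23.8% lower. *Chat*, which makes acetylcholine, rose by 0.99, *Dcx*, of young neurons, by 1.01 and *Mnx1* by 0.88, and *Neurog2* and *Snap25* fell by 0.45 and 0.29, a call that *Snap25* lost in 3 of 10 alternatives. The part that these cell types had in the values of the 10 genes was not tested.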

How the data were processed

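Per the labels, the libraries were stranded and made from RNA depleted of ribosomal RNA. The authors deposited raw counts of reads per gene symbol for each library, without normalization, on mm10. The submitters' processing notes name TopHat2 (2.1.1), Bowtie2 (2.3.1), featureCounts (1.6.2) and DESeq2. The annotation and strand setting of the counting are not given in the sources used here. Replicates are separate differentiations, as the study's methods describe them.

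From the deposited counts, edgeR (4.0.16, with limma 3.58.1 in R 4.3.3) was run over all 4 libraries with TMM normalization, filterByExpr (minimum count 10) and its quasi-likelihood test, with Benjamini-Hochberg adjustment over 14269 genes at 0.05. The SE is the absolute log2 fold change over the square root of F. CPM uses TMM library sizes. The common biological coefficient of variation was 7.71%. With 2 libraries against 2, no exact permutation test of a single gene can pass 0.05. The detection limit was 3 counts per library. Positions and exon lengths came from GENCODE M21, in which 21740 of 23420 symbols matched 1 gene. Tests were checked on simulated counts in which far fewer genes differed than were called in these data. That check does not cover a contrast with so many changed genes.

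The 10 genes and the 12 lists were chosen with earlier results of these data known. The list genes named were those of the ligand and paralogue lists, the 3 with the smallest p in each direction of the other main lists, and genes at 0, apart from 1 gene that is not reported here. Genes named beyond this rule, the promoter motifs and the neighbours were chosen after values had been seen. The alternatives were scaling by library size or by the size factors of DESeq2, no filter, a minimum of 10 counts per library, a block for the replicate number, the Wald test of DESeq2 (1.42.0), a minimum absolute log2 fold change of 1, thinning to the smallest library, TMM without the 20 most counted genes, and leaving out each library. Promoters and plots were handled in Python 3.11.15 with pandas 2.3.3, numpy 2.4.6, scipy 1.17.1 and matplotlib 3.10.9.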

Additional observations from a re-analysis of the deposited data

How the results depend on the processing

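The log2 fold changes of all 10 genes stayed negative under every alternative that gave a value. The genes were chosen on this contrast, so nothing is read from that. A minimum of 10 counts in every library gave values for *Foxc1*, *Pdgfra*, *Pdgfrb* and *Vcan* only. Leaving out 1 library moved the values most: *Pdgfra* ran from -4.21 to -3.68, *Vcan* from -1.80 to -1.66, *Prrx1* from -2.97 to -2.38 and *Foxc1* from -3.52 to -3.11. The ranges of *Foxc2* (-5.81 to -4.46) and *Tcf15* (-2.08 to -0.57) were wider. The least counted genes, *Meox1* and *Twist2*, gave a fitted value only in 5 alternatives each.

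Over all genes, 3392 were called lower and 3445 higher. With an absolute log2 fold change above 1 required, which asks for a larger change, 444 were lower and 274 higher. Leaving out 1 library gave 2175 to 3831 lower and 2346 to 3985 higher, the lowest counts without WT replicate 2. DESeq2's Wald test called 2444 lower and 2672 higher. Scaling moved the median of all genes by at most 0.03 on the log2 scale.

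The replicate number as a block gave 3651 lower and 3712 higher. The deviations of same-numbered libraries correlated at 0.0413 over genes, and the labels tie them by number only, so the samples were not taken as paired.

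Of 200 list and neighbour genes, 127 were called, 35 of these lost the call in at least 1 alternative and 0 changed sign. Over all lists, 72 genes were called lower and 34 higher, beside 23.8% and 24.1% of all genes tested. Leaving out genes below 10 counts in any library gave 50 lower and 32 higher. Depth limits *Meox1*, *Twist2*, *Tbx18* and *Tcf15* most.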

Other observations

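The WT replicates were not equal for these genes. In CPM, 8 of the 10 genes were higher in WT replicate 2 than in replicate 1, with a median ratio of 1.28, while over all genes tested 50.1% were higher and the median ratio was 1.00. The lateral plate list differed in the same direction, with a summed ratio of 1.14, and so did the endoderm list, also at 1.14. The ratio was 1.18 for the endothelium and blood list and 1.30 for the pluripotency list. The paraxial mesoderm and somite list stood at 1.01, the mesenchyme and fibroblast list at 1.003 and the motor neuron list at 0.942. The other lists lay between 0.981 and 1.03. Between the *Patz1* KO replicates, 4 of the 10 genes were higher in replicate 2.

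The genes whose profile over the 4 libraries lay nearest to the median profile of the 8 tested genes, by Euclidean distance of centred log2 values, were *Ahnak* (distance 0.0658), *Cldn5* (0.0683), *Sox17* (0.0900), *Adcy7* (0.0917) and *Prlr* (0.101). Their log2 fold changes were -1.75, -2.78, -2.50, -1.88 and -2.37. With 4 points, such likeness is a description only.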
